A study of Homo sapiens with 12 samples.

Results

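Long domains of H2AK119ub that held no listed RNF2 peak were examined in H1, a widely used established line of human embryonic stem cells. The domains, called islands here, were those of the wild-type H2AK119ub list that spanned at least 10 kb and overlapped no peak of the wild-type RNF2 list by 1 bp or more. The members were thus chosen by the measured length of the H2AK119ub islands and by the absence of RNF2 peaks. This rule took 1787 of the 43331 islands (4.12%) and 1787 of the 7162 islands of 10 kb or longer (24.95%, 95% exact Clopper-Pearson interval 23.95 to 25.97%). The series comprised 12 chromatin immunoprecipitation sequencing (ChIP-seq) libraries in 6 groups of 2 replicates. Untreated H1 cells gave the H2AK119ub, RNF2, YTHDF1 and input groups. H1 cells treated with an shRNA against YTHDF1 gave a YTHDF1 and an input group, and H2AK119ub and RNF2 were mapped in untreated cells alone. All cells were grown in mTESR1 medium. The replicates of each antibody had been merged into 1 list by the authors, so no spread between replicates could be computed and the depth of each library was unknown. Intervals below cover counting error only, and islands of 1 list are not replicates.

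H2AK119ub is ubiquitin on a lysine of histone H2A, and it is written by Polycomb repressive complex 1 (PRC1), of which RNF2 (RING1B) is a catalytic subunit. The complex is recruited to CpG-rich promoters of developmental genes in embryonic stem cells, and the mark can extend over much wider stretches than the sites where the complex is mapped as a peak. RING1A is a paralogue of RNF2 with the same activity, and it was not analysed here. YTHDF1 binds N6-methyladenosine on RNA and is best known as a cytoplasmic reader that promotes translation. The series asked whether YTHDF1, RNF2 and the mark meet on chromatin.

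Gene starts in these islands had fewer CpG dinucleotides than starts in long islands that held RNF2. The following are the 250 bases upstream of RefSeq start sites (GRCh38.p14, given 5′ to 3′ on the strand of the gene, CG dinucleotides in capitals) from genes at 3 of the 12 longest islands without RNF2. They were chosen after the values were seen, GRM4 and ENG for the start with fewest CG and AK1 and MTSS2 for the start with most, and so they show the range and not the average.
GRM4 (chr6:34110764-34111013, minus strand): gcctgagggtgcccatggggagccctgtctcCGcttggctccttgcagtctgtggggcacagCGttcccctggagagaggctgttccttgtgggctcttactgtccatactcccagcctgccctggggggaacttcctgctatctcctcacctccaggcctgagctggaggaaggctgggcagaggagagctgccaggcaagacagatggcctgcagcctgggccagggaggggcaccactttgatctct
ENG (chr9:127854659-127854908, minus strand): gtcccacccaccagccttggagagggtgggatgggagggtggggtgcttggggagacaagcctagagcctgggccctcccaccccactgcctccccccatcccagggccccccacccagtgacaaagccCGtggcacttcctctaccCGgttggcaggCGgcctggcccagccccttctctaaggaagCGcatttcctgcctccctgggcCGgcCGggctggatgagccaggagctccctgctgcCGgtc
AK1 (chr9:127877676-127877925, minus strand): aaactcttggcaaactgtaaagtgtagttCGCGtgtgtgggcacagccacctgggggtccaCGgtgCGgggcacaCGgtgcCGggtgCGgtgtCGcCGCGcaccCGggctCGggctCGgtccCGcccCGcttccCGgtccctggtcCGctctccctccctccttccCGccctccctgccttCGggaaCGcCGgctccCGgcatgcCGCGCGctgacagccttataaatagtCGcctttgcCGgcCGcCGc
MTSS2 (chr16:70686054-70686303, minus strand): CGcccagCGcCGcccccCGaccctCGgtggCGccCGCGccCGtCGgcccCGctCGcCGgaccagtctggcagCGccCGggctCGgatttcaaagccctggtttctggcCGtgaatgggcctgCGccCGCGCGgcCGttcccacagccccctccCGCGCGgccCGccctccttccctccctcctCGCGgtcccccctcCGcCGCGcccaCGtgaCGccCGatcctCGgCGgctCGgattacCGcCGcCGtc
The GRM4 window belongs to an alternative start 44.9 kb inside the gene, whose outermost 5′ end has an RNF2 peak within 2 kb. That window held 2 CG, and the window of ENG, at the gene's 5′ end, held 7. AK1, at a start 1.95 kb inside the gene, had 29 and MTSS2, at the 5′ end, had 40, so a start with a CpG-rich promoter could also lie in an island without RNF2. AK1 shares its 45 kb island with ENG.

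For comparison, 2 genes whose bodies carried islands without RNF2 have their starts in other long islands that did hold RNF2.
UNC5A (chr5:176810309-176810558, plus strand): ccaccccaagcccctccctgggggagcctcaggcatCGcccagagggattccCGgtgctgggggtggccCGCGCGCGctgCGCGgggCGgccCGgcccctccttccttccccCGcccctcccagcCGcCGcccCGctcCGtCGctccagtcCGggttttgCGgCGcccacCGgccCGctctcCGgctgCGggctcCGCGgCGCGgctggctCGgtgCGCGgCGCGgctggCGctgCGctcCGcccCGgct
COL18A1 (chr21:45404915-45405164, plus strand): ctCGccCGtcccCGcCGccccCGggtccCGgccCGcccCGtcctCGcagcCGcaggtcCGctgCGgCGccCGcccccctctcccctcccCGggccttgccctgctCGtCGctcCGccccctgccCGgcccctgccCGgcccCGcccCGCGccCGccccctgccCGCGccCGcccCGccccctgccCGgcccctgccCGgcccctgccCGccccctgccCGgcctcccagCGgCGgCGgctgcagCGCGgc
There were 36 CG upstream of UNC5A and 37 upstream of COL18A1. Each gene carried 4 of the long islands without RNF2 downstream of these starts, described below.

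Over all starts with a sequence, the pattern rested on 217 starts of 179 genes in islands without RNF2. Their median ratio of observed to expected CpG over the 300 bases around the start (250 before, 50 after) was 0.332, against 0.781 for 5594 starts in long islands with RNF2, 0.521 for 1426 starts in shorter islands without RNF2 and 0.737 for all 22199 starts. A ratio of at least 0.6 was reached by 18.9% of starts in islands without RNF2 (41 of 217, 13.9 to 24.7%), by 71.2% in long islands with RNF2 (70.0 to 72.4%) and by 62.2% of all starts. The median GC content of these promoters was 61.7%, near the 62.3% of all starts and below the 67.3% in long islands with RNF2. Starts outside every island had a median GC content of 49.7% and a median CpG ratio of 0.316. The letters TATAAA, searched on both strands, occurred in 7.37% of the 217 windows (4.27 to 11.7%), in 6.13% of windows in long islands with RNF2, in 18.4% outside islands and in 9.47% of all windows of this length. Starts of 1 gene share sequence and are not independent.

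**Figure D1:**
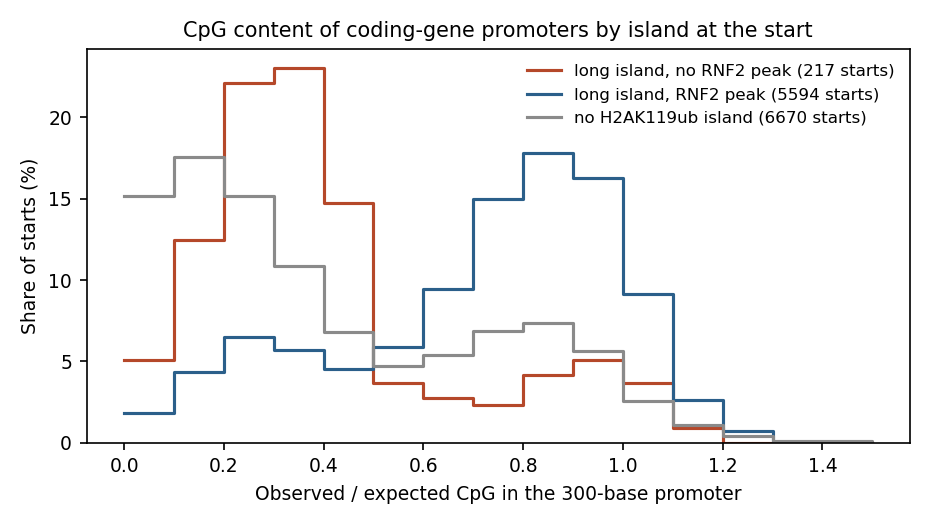
Distribution of the observed over expected CpG ratio in the 300 bases around coding-gene starts, by the kind of H2AK119ub island that held the start. Starts in long islands without RNF2 centre on a median of 0.332, below the 0.781 of long islands with RNF2.

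The islands without RNF2 covered 25.8 Mb, or 8.31% of all base pairs under H2AK119ub. Because length and RNF2 chose them, their length and score are a description only. Their median length was 12.6 kb, 90% were at most 21 kb long and the longest reached 73 kb, while the 5375 long islands with RNF2 had a median of 16.6 kb. The authors' H2AK119ub score had a median of 71.8, and 56 of the islands (3.13%) sat at its cap of 1000. Long islands with RNF2 had a median at the cap, with 53.5% of them there, and shorter islands without RNF2 had a median of 13.9. At the length limit, 99 islands measured exactly 10 kb, with a median score of 47.4, and 112 islands without RNF2 fell just short at 9.8 kb, with a median of 41.3. Islands over PDE6B and MUC3A and 134.3 kb from PJA1 lay just inside the limit, and islands over TIGAR and MYT1L lay just outside it.

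RNF2 was usually not far away. The nearest RNF2 peak was a median of 17.4 kb from the island (quartiles 8.52 and 38.3 kb), 30.3% of islands had one within 10 kb and 82.0% within 50 kb. Only 12 of the 1787 had one within 1 kb. Other H2AK119ub islands were closer still, at a median gap of 1.2 kb, and for 66.6% the gap was at most 2 kb. The median gap was also 1.2 kb for long islands with RNF2, and 3.2 kb for shorter islands without RNF2. An island with RNF2 flanked 48.9% of the long islands without RNF2 on at least 1 side. This share was lower than the 63.3% of long islands with RNF2 and the 54.1% of shorter islands without RNF2. Where consecutive islands without RNF2 lay within 10 kb of each other they formed 133 pairs, 18 runs of 3, 3 of 4 and 1 of 5, and 1450 stood alone. Joining all islands at most 1 kb apart left 1426 of the 1787 in a long stretch without RNF2 and put the other 361 in a stretch that held a peak. The membership of those 361 depended on how neighbouring islands had been split.

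Some of the longest islands lay next to islands with RNF2, and others had neighbours without it. The 73 kb island at chr6:34044801-34117800 lay whole inside GRM4, a metabotropic glutamate receptor gene, and held 1 YTHDF1 peak. It was separated by 0.8 kb and 1 kb from neighbouring islands that held 3 and 5 RNF2 peaks. A 55.2 kb island covered part of IGSF21, a synaptic adhesion gene of the immunoglobulin superfamily, and its neighbours on both sides, 3 kb away, held no RNF2. In GLI2, a transcription factor of the Hedgehog pathway, the 49 kb island was 26.0 kb from the nearest RNF2 peak. KDM4B, a histone H3 lysine 9 demethylase, carried a 48 kb island 127.0 kb from RNF2 with 1 YTHDF1 peak. Islands of 47.6 kb lay over RSPH14 and GNAZ and 33.1 kb from NEURL1B. PTPRS, a receptor phosphatase of axon growth, carried 46.4 kb, and the potassium channel gene KCNQ1 carried 45.4 kb. The island over ENG, the TGF-beta co-receptor endoglin, also covered AK1 and part of ST6GALNAC6. The last 3 of the 12 lay next to TSPAN9 (45 kb), over MTSS2 and VAC14 (44.6 kb, 234.4 kb from RNF2) and in MICAL3 (42.2 kb). Of these 12, 11 had a score at the cap, and the island next to TSPAN9 had 298.9.

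**Figure D2:**
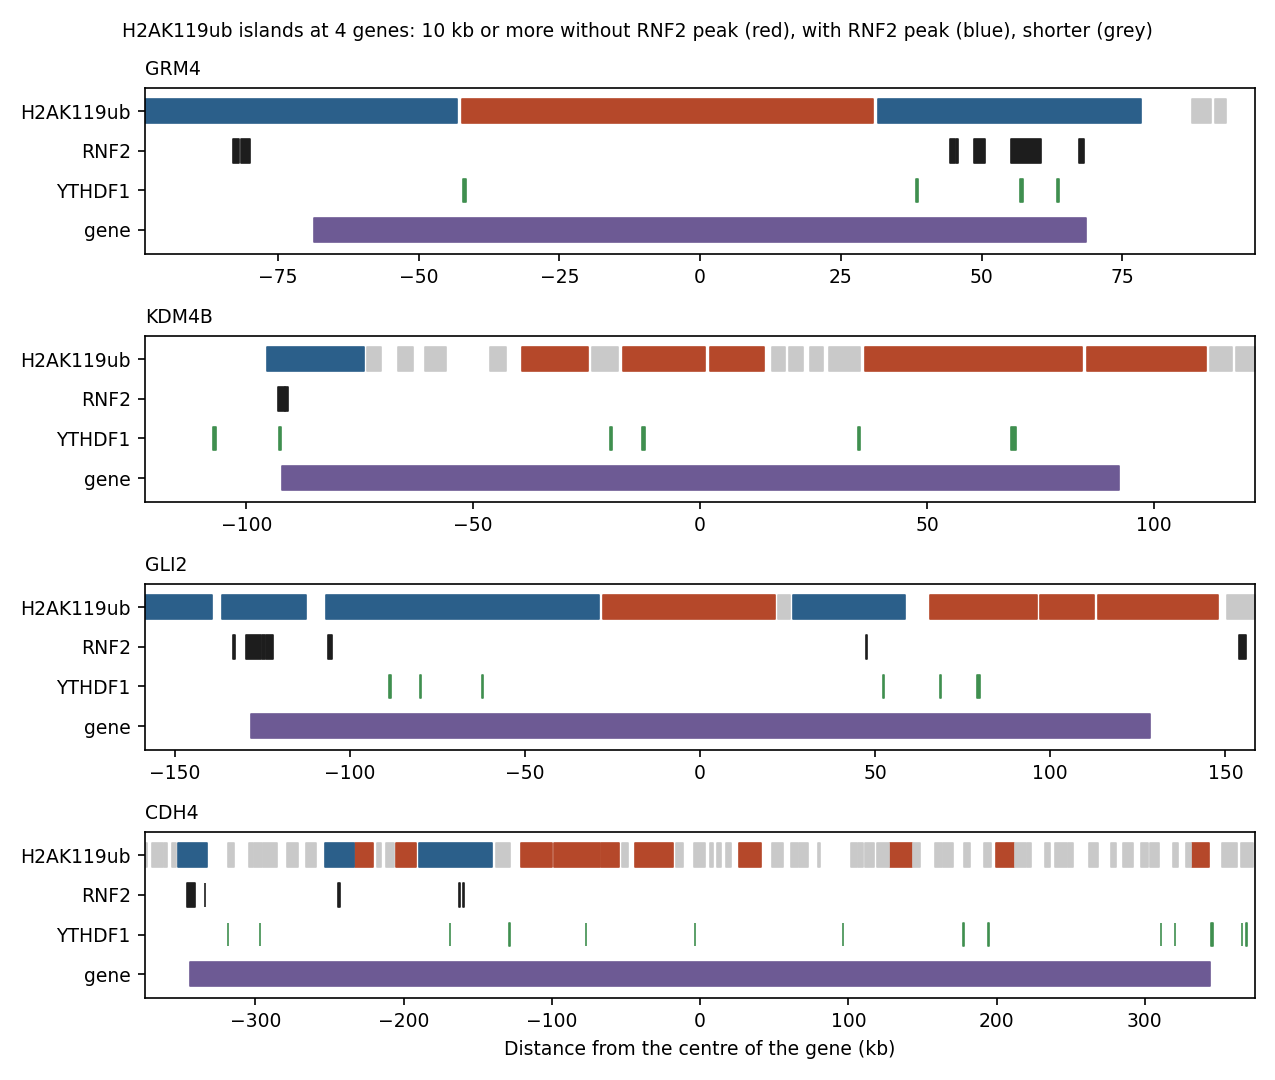
Positions of H2AK119ub islands, RNF2 peaks and YTHDF1 peaks along GRM4, KDM4B, GLI2 and CDH4, in kb from the centre of each gene. The 10 islands without RNF2 on CDH4 and the 73 kb island on GRM4 lie whole inside the gene, and on KDM4B and GLI2 1 island each runs past the gene's end.

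Long islands without RNF2 lay whole inside a gene more often than long islands with RNF2 and less often than shorter islands without RNF2. They were whole inside a protein-coding gene in 44.2% of cases (789 of 1787, 41.8 to 46.5%), where 36.6% of all islands did. Long islands with RNF2 did so in 15.4%, a difference of 28.7 percentage points (Newcombe 95% interval 26.3 to 31.2). Shorter islands without RNF2 did so in 47.9%, a difference of -3.71 points (-6.09 to -1.32). Of the base pairs, 60.2% lay in coding genes, against 56.8% in long islands with RNF2. The difference from long islands with RNF2 lay between 24.8 and 34.6 points in each of 4 length classes, 10 to 12, 12 to 15, 15 to 20 and over 20 kb. A coding gene was overlapped by 68.4% (66.2 to 70.6%), against 65.0% of all islands and 83.3% of long islands with RNF2, a difference of -14.9 points (-17.3 to -12.5) from the latter. No annotated gene of any kind was overlapped by 16.8% of the islands without RNF2, by 7.16% of long islands with it, by 29.7% of shorter islands without RNF2 and by 22.1% of all islands. Over 20 kb the difference between the long islands was 1.55 points (-0.771 to 5.39), an interval that includes 0.

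Gene starts and gene ends were rarer in long islands without RNF2 than in long islands with RNF2. This follows in part from the rule. Of coding genes with a known strand, 65.9% had an RNF2 peak within 2 kb of their 5′ end. Dropping islands with RNF2 therefore tends to drop islands at starts, and the values are a description. A coding-gene start lay in 9.26% of islands without RNF2 (162 of 1749, 7.94 to 10.7%), in 24.2% of all islands and in 56.3% of long islands with RNF2. The difference was -47.1 percentage points (-48.9 to -45.1), and within the length classes it ran from -40.6 to -48.7. Starts on chromosome 8 were not analysed here, so its islands were left out of these shares. Over the genome 15843 of 20037 coding genes had a known start, and genes without one are also found on other chromosomes. Their starts could not be counted, so the shares of islands with a start may be too low. Either end of a coding gene lay in 25.3% of the islands without RNF2 (23.3 to 27.4%), in 29.6% of all islands and in 69.5% of long islands with RNF2, a difference of -44.1 points (-46.4 to -41.7). Shorter islands without RNF2 had still lower shares, 4.88% with a start and 8.52% with an end. Per Mb the shorter islands had 14.7 starts and 24.2 gene ends, against 8.60 and 27.3 in long islands without RNF2. Per Mb of island, genes with a known strand had 5.74 of their 5′ ends (4.85 to 6.76) and 14.4 of their 3′ ends (12.9 to 15.9) in islands without RNF2. In long islands with RNF2 the order was the opposite, with 33.4 5′ ends and 24.4 3′ ends per Mb. The density of 5′ ends in islands without RNF2 was close to the 5.39 per Mb of the whole genome extent.

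**Figure D3:**
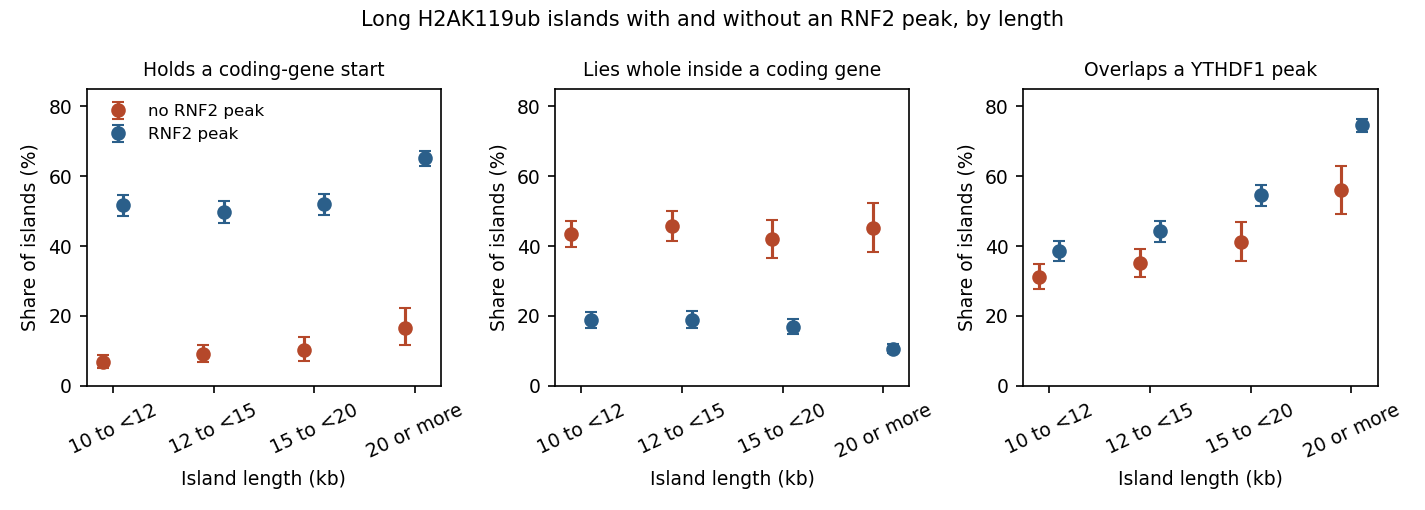
Shares of long islands with a coding-gene start, whole inside a coding gene, or with a YTHDF1 peak, by island length class, with exact 95% intervals. Islands without RNF2 lie below those with RNF2 for starts and for YTHDF1 and above them for whole inside a gene in every class.

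Within genes of known strand, 589 islands lay whole inside the gene. Their median distance from the start was 55.8 kb, and their centre lay at a median of 55.2% of the gene's length. Over 4 equal stretches of the gene from 5′ to 3′ they numbered 93, 168, 171 and 157. Only 49 of them (8.32%) began within 10 kb of the start. The starts of the genes that held them often carried RNF2, with a peak within 2 kb in 338 of 415 genes (81.4%, 77.4 to 85.1%). The share was 65.9% of all 15843 genes of known strand, short genes included. Among all genes of known strand that overlapped an island without RNF2, whole or in part, the share was 67.7% (543 of 802, 64.3 to 70.9%). These positions and shares rest on the RNF2 list that chose the islands and are a description. Genes that hold a whole island are at least 10 kb long, and no share at matched gene length was computed.

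In all, 1075 of 20037 coding genes (5.37%) overlapped an island without RNF2 and 6139 (30.6%) a long island with RNF2. Both kinds were found on 615 genes, which is 57.2% of the first set and 10.02% of the second. Genes with an island without RNF2 had a median length of 52.4 kb, against 17.6 kb for those with a long RNF2 island and 24.1 kb for all. With coding genes ranked by length and divided into 5 equal classes, the share with an island without RNF2 was 1.87, 3.34, 5.14, 6.79 and 9.68% from the shortest to the longest class. The share with a long RNF2 island was 35.9% in the shortest class and 24.4% in the longest.

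The genes with most sequence under these islands were long, from 184.5 to 785 kb. SHANK2, a scaffold of the excitatory synapse, had 9 islands covering 175 kb of its 785 kb. CDH4, the R-cadherin gene, had the most islands of any gene, 10, which covered 168 kb and held 1 YTHDF1 peak. RBFOX3, a splicing factor known as the neuronal marker NeuN, had 144 kb under 8 islands, and KCNQ1 had 127 kb under 5. IGSF21 followed with 113 kb, GLI2 with 109.7 kb, CDH23 with 106.5 kb and KDM4B with 99.4 kb, which is 53.9% of that gene. The next were IQSEC1, KIRREL3, COL23A1 and VAV2, with 82.7 to 95.8 kb each. All 12 of them also had at least 1 long island with RNF2. Among the 1075 genes, 85 lay whole inside 1 island, and by the rule such genes can overlap no RNF2 peak. The longest were BTBD2, CD300LG, MYL10, ASGR2, LRRC32, AK1, CCR7 and NAPSA, from 30.3 down to 10.8 kb. CCR7 is a chemokine receptor of lymphocytes, ASGR2 a subunit of the asialoglycoprotein receptor of hepatocytes, and MYL10 a myosin light chain.

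Gene families were read against the 5.37% of all coding genes. Among families of channels and receptors, islands without RNF2 overlapped 8 of 26 calcium channel subunits, 14 of 96 potassium channel subunits, 4 of 47 glutamate and GABA receptor subunits, 4 of 28 adhesion G protein-coupled receptors and 28 of 396 solute carriers. CACNA1I, a T-type calcium channel, had 4 islands over 45.3% of its length. Among guidance and matrix genes they overlapped 11 of 80 axon guidance genes, 3 of 23 classical and atypical cadherins, 9 of 44 collagen chains, 2 of 12 laminin chains and 1 of 24 ADAMTS proteases. UNC5A, a netrin receptor, had 64.4% of its length under 4 of these islands, and COL18A1 had 51.4% under 4. No test of these counts was made, and several of these families have long genes: the median length was 112.5 kb for calcium channels and 144.7 kb for collagens.

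Long islands with RNF2 overlapped more coding genes than those without it, 30.6% against 5.37%, and more members of each family named here. They overlapped 16 of the calcium channel subunits, 43 of the axon guidance genes and 22 of the collagen chains. Of 140 developmental transcription factors, 5 overlapped an island without RNF2 and 120 a long island with RNF2. All 39 HOX genes lay in long islands with RNF2 and 0 in islands without it. The counts without RNF2 were 3 of 37 for WNT ligands, receptors and antagonists and 2 of 26 for FGF ligands and receptors. Among other families the islands without RNF2 overlapped 0 of 392 olfactory receptors, 0 of 53 clustered protocadherins, 3 of 149 keratin genes, 1 of 85 ribosomal protein genes and 17 of 509 ZNF genes. Several low counts belong to short genes. The median length was 1.15 kb for keratin genes, 2.94 kb for olfactory receptors, 5.06 kb for ribosomal protein genes and 6.47 kb for developmental transcription factors. Clustered protocadherins had 110.2 kb. In the 2 shortest length classes of all coding genes the share was 1.87 and 3.34%. The remaining lists gave 1 of 13 dynein heavy chains, 1 of 25 imprinted genes (KCNQ1) and 1 of 9 H2A deubiquitinases.

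Genes of the pathway itself and of the pluripotent state gave small counts. Islands without RNF2 overlapped 2 of 30 PRC1 genes (PCGF3 and SCMH1), 1 of 13 PRC2 genes (JARID2) and 0 of 21 m6A writers, erasers and readers. Among 23 pluripotency genes there were 3: POU5F1, TFCP2L1 and ESRRB. The island at POU5F1, which encodes OCT4, spanned 14 kb at chr6:31167601-31181600, covered 3.08 kb of the gene and lay 8.87 kb from RNF2. TFCP2L1 carried 10.8 kb, and ESRRB, an orphan nuclear receptor, carried islands of 10.2 and 14.2 kb.

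MicroRNA hairpins were the other short features examined. The islands without RNF2 held 40 of 1560 hairpins, or 1.55 per Mb (1.11 to 2.11), against 2.34 in long islands with RNF2 and 0.505 over the whole extent. All islands had 1.85 per Mb and shorter islands without RNF2 had 1.20, both within the interval of 1.11 to 2.11. A 12.6 kb island at chr19:53779001-53791600 covered MIR371A, MIR371B, MIR372 and MIR373, a cluster known for its expression in human embryonic stem cells. It had a score of 66.1, lay 50.5 kb from RNF2 and held no YTHDF1 peak. These mature sequences (RefSeq, GRCh38.p14, seed bases 2 to 8 in capitals, chosen after the values were seen) show how the cluster's members differ.
hsa-miR-371a-3p: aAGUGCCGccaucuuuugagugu
hsa-miR-372-3p: aAAGUGCUgcgacauuugagcgu
hsa-miR-373-3p: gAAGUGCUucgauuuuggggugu
The seed AAGUGCU is shared by hsa-miR-372-3p and hsa-miR-373-3p, and that of hsa-miR-371a-3p is AGUGCCG.

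YTHDF1, which the rule did not use, was found on 664 of the 1787 islands without RNF2 (37.2%, 34.9 to 39.4%). The share was 21.6% over all islands, 56.5% for long islands with RNF2 and 12.03% for shorter islands without RNF2. The difference from long islands with RNF2 was -19.3 percentage points (-21.9 to -16.7). It was smaller at matched length, at -7.30 points (-11.7 to -2.83) for 10 to 12 kb, -9.20 for 12 to 15 kb, -13.2 for 15 to 20 kb and -18.4 (-25.4 to -11.6) over 20 kb. By number, 1123 islands held 0 peaks, 532 held 1, 105 held 2, 23 held 3 and 4 held 4.

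Counted per Mb of island, the density of YTHDF1 peaks was near that on shorter islands without RNF2 and above that outside islands. A peak that overlapped an island by 1 bp counted in full, which raises the density more on shorter islands. No correction was made for this, so the ratio to shorter islands may be too low. There were 32.1 peaks per Mb (29.9 to 34.3) on long islands without RNF2, 30.8 on shorter ones (ratio 1.04, 0.963 to 1.12) and 11.5 outside all islands (ratio 2.79, 2.60 to 2.99). Long islands with RNF2 had 46.6 per Mb, a ratio of 0.687 for islands without over islands with RNF2 (0.638 to 0.740). Between long islands that held no gene end the ratio was 0.901 (0.812 to 0.998), with 31.1 and 34.5 peaks per Mb. Between those that did hold a gene end it was 0.687 (0.601 to 0.782), with 34.7 and 50.5 per Mb.

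**Figure D4:**
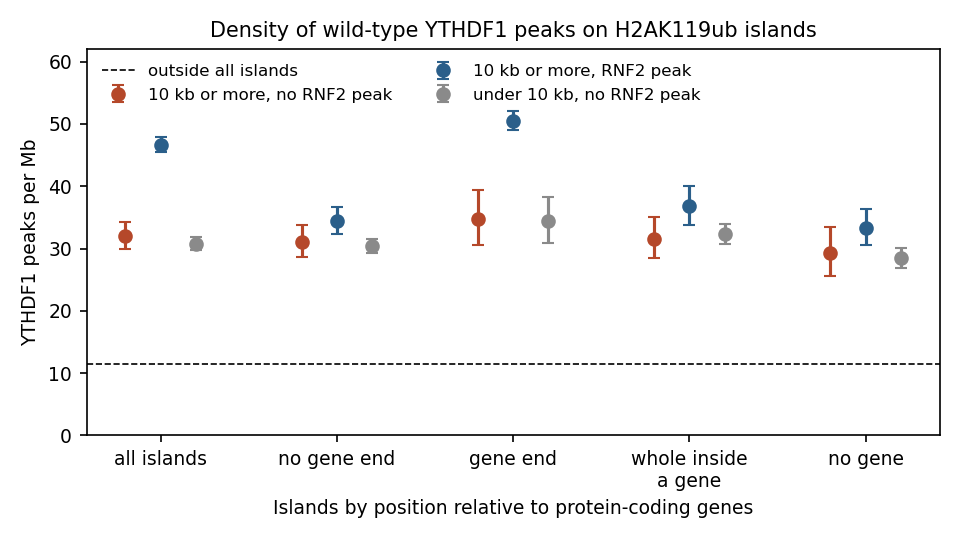
YTHDF1 peaks per Mb of island for each kind of island and outside islands, with exact Poisson 95% intervals. Long islands without RNF2 (32.1 per Mb) lie beside shorter islands without RNF2 (30.8) and below long islands with RNF2 (46.6).

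The 827 YTHDF1 peaks on islands without RNF2 had a median fold enrichment of 2.94 by the authors' values, against 2.95 on long islands with RNF2, and a highest value of 4.66, against 74.7. Of the 827, 15 (1.81%, 1.02 to 2.97%) had a −log10 q of at least 4, against 5.57% of the peaks on long islands with RNF2. With peaks of that strength alone the density ratio to long islands with RNF2 was 0.224 (0.124 to 0.375). The strongest lay in RHBDD2, a rhomboid family gene, at chr7:75878823-75879322, with 4.66-fold enrichment. TPCN2, an endolysosomal channel, and SCARB1, a high-density lipoprotein receptor, each had a peak of 4.07-fold. The others of the strongest 8 lay in FBN3, RAB11FIP3, NHLH1 and KMT2D and 3.57 kb from ZNF205, at 3.68 to 3.93-fold.

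The knockdown YTHDF1 list held 226 peaks in all, and 4 of them lay on islands without RNF2, including peaks in RER1, RALGPS1 and FAM53A. Over all islands 0.288% overlapped a knockdown peak. The peaks in RER1, RALGPS1 and FAM53A overlapped no wild-type peak. The knockdown list began at a −log10 q of 4.01 and the wild-type list at 1.50, so the 4 stand against the 15 wild-type peaks of at least 4 on these islands rather than against the 827. No test of this difference was possible from 1 merged list per condition, and the level of YTHDF1 left after knockdown was not analysed here. The RNF2 list also began at 4.01, so an island without RNF2 is one without a peak of that strength.

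The share of long islands that lacked RNF2 varied between chromosomes. It was highest on chromosome 21 (43 of 112, 38.4%, 29.4 to 48.1%) and chromosome 22 (111 of 346, 32.1%), followed by chromosome 11 (30.2%). Chromosome 18 had 11 of 74 (14.9%), and chromosome X had 5 of 44 (11.4%, 3.79 to 24.6%). Chromosome Y had 1 long island, which lacked RNF2. Per 10 Mb, chromosomes 22 and 19 held most of these islands, 21.9 and 21.2, and X held 0.320. Chromosome 19 also had 247.6 coding genes per 10 Mb, and 20.8% of its long islands lacked RNF2, against 24.95% of all long islands. Per 100 coding genes, chromosome 22 held 24.6 of these islands, chromosome 21 held 18.0, chromosome 19 held 8.55 and X held 0.590.

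**Figure D5:**
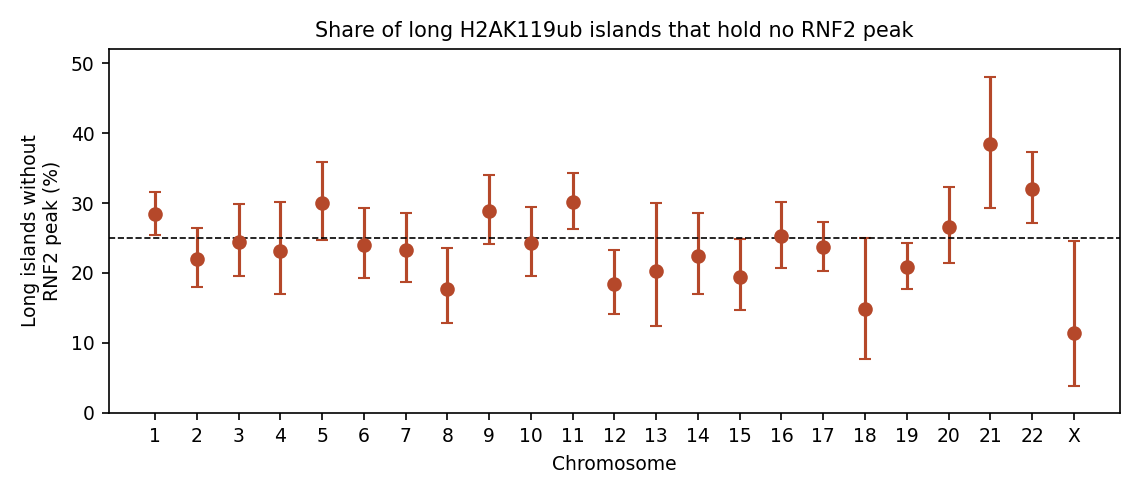
Share of long H2AK119ub islands without RNF2 on each chromosome, with exact 95% intervals. Chromosome 21 (38.4%) lies highest among chromosomes with more than 1 long island and X (11.4%) lowest.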

How the data were processed

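ChIP-seq peak lists from H1 cells were used, 1 list per antibody and condition, each merged from 2 replicates by the authors, per the series' design text. The submitters' processing notes list SICER 1.1, MACS2 2.1.0, Bowtie2 2.2.5, Trimmomatic 0.35, Picard and SAMtools 1.3.1, with the build hg38. Which caller made which list is not given in the sources used here. For H2AK119ub islands the authors deposited a score, of unstated scale and capped at 1000, and for each RNF2 and YTHDF1 peak a score, a fold enrichment and 2 significance values, −log10 p and −log10 q. These values only described, ranked or filtered peaks within their list. All 43331 islands lie on a 200 bp grid and their ends name the last base. The lists hold no counts, so depth is unknown.

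Islands, peaks and RefSeq genes (GRCh38.p14) were intersected with Python 3.11.15, pandas 2.3.3, numpy 2.4.6 and SciPy 1.17.1, at an overlap of 1 bp. Starts, strand and promoter sequence were known for 15843 of 20037 coding genes, with 22199 starts. Shares carry exact Clopper-Pearson intervals, differences Newcombe intervals, densities exact Poisson intervals and density ratios exact conditional intervals, all at 95% and for counting error only. No p-value was computed. The interval code was tested on simulated data.

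Named genes were those at the 12 longest islands, the 12 with most base pairs under islands, the 8 longest whole inside 1 island, those at the 8 strongest wild-type and all knockdown YTHDF1 peaks on islands, up to 3 per gene family, and 3 islands on each side of the length limit. Some genes that met it are not reported here. The miRNAs and the printed promoters fall outside the rule. The islands, the 26 gene families and the comparisons were chosen with earlier results of these data known. The definition of developmental transcription factors was narrowed after values were seen, because its name pattern had also taken unrelated genes. Alternatives were other length limits, RNF2 flanks, midpoints, peak strengths, merged islands, autosomes and the better-scoring 50% of lists.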

Additional observations from a re-analysis of the deposited data

How the results depend on the processing

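The differences between long islands without and with RNF2 in YTHDF1, coding-gene overlap, gene ends and gene starts kept their sign under the 9 to 11 settings tried for each, and other differences were not recomputed. For gene ends and gene starts the sign follows in part from the rule. With a minimum length of 5 kb, the islands without RNF2 held YTHDF1 in 21.6%, overlapped a coding gene in 60.2% and held a gene end in 14.8%, and their differences from islands with RNF2 were -19.3 points for coding genes and -48.8 for gene ends, beside -48.1 for gene starts. With 15 kb the 3 shares were 47.2%, 73.9% and 31.6%. Restricting YTHDF1 to a −log10 q of 2 or more left it on 14.0% of the islands, and 4 or more, a setting added after seeing the data, on 0.839%, with a difference of -4.70 points. With the better-scoring 50% of RNF2 peaks, the shares were 41.0% for YTHDF1 and 31.9% for gene ends, and the difference for coding genes was -17.7 points. A gene end within 2 kb of the island was found for 29.2%, with a difference of -41.7 points. Standardised to the length classes of the islands without RNF2, also added after seeing the data, the differences were -10.3 points for YTHDF1, -12.2 for coding genes, -39.3 for gene ends and -43.4 for gene starts. The values of these results under the other settings stayed within the intervals of the main values. No paired analysis was possible because the replicates of each group had been merged into 1 list, and leaving out a replicate could not be run for the same reason. Depth is unknown, so an island without a listed RNF2 peak may carry RNF2 below the threshold of the list.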
